A study of Rattus norvegicus with 4 samples.

Results

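A family of 19 overlapping small RNA sequences, led by novel_12673_x157, was examined in 4 libraries of RNA recovered by immunoprecipitation from the CA1 region of the rat hippocampus. The family was found by joining sequences of the deposited raw table that share an identical stretch of 20 bases, directly or through other sequences. It holds 19 of the 3129 sequences listed, and it is 1 of 307 such families. It had been chosen by its high tag counts in the HPC0h library against the other libraries, so those counts are given as a description.

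The animals were male Wistar rats of 7 to 8 weeks. The libraries were HPC0h, tGCI26h and Sham, taken from the series' title to hold RNA bound to Piwil2, and IgG, the antibody control. The name tGCI26h stands for transient global cerebral ischemia and 26 h, and the sources used here give no further details of how the HPC0h, tGCI26h and Sham animals were treated. HPC is not spelled out in the labels, although in work on this model it commonly stands for hypoxic postconditioning, a mild hypoxia after ischemia. The event from which 0 h and 26 h were counted, the animals behind the IgG library and any pooling of animals were not given either. The design text speaks of 3 replicates per group, but 1 library per group was analysed here. Every comparison is therefore between libraries, no test between conditions was possible, and each 95% interval covers counting error only.

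Piwil2 belongs to the PIWI proteins, which carry small guide RNAs called piRNAs and are best known for silencing transposons in germ cells. Primary piRNAs typically begin with U, written T in the table, and secondary piRNAs typically have A at position 10. CA1 pyramidal neurons are known for their sensitivity to global ischemia. Fragments of abundant RNAs, such as ribosomal RNA, also occur in immunoprecipitates, and an IgG library measures what is recovered without a specific antibody.

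All 19 members are exact pieces of a single stretch of 44 bases, with no mismatch. It is shown here with the 27 bases that every member shares in capitals, at positions 9 to 35 counted from 1 at the 5′ end.
Joined sequence: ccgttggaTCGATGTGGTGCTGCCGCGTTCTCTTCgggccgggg
The members begin at 5 positions (1, 5, 7, 8 and 9) and end at 7 (35 and 39 to 44), so they form a ladder of end variants of 31 to 38 nt. The lead member and the members that share its start, with the same bases in capitals, show the ladder at the 3′ end.
novel_12673_x157: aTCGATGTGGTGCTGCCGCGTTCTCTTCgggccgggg
novel_5556_x336: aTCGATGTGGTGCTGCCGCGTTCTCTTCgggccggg
novel_1534_x1125: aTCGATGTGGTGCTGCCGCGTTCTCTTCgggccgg
novel_10685_x182: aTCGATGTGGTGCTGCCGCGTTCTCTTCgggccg
novel_1449_x1180: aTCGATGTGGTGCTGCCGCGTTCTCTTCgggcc
novel_2910_x626: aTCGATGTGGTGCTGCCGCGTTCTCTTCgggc
The other starts are shown by the most abundant member of each, since these carry most of the remaining tags.
novel_17802_x116: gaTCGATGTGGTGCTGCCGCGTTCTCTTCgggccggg
novel_7226_x263: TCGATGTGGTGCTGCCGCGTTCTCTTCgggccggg
novel_4335_x431: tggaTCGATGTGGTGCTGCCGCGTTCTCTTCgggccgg
novel_13081_x152: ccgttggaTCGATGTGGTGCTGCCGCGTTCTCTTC

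One catalogued rat piRNA, rno_piR_000699, lies wholly within this stretch, at positions 2 to 28, and inside the member novel_13081_x152. The 20 bases that it shares with all members are in capitals here. It is listed only in the authors' normalized table, which is why it was not joined to the family, with a value of 2 in HPC0h and 2 in tGCI26h and none in Sham or IgG.
rno_piR_000699: cgttggaTCGATGTGGTGCTGCCGCGT
Its name is the only annotation that the files give to these bases. Neither strand of the joined sequence shared a stretch of 16 bases with any of 33469 rat promoter windows or 419 rat miRNA hairpins from RefSeq (build GRCr8), or with any of the other 3110 sequences of the raw table. As background from general knowledge of mouse, and not from a reference used here, pre-ribosomal RNA is first cut in its 5′ external transcribed spacer, beside a conserved motif that nucleolin binds and that contains TCGA (UCGA in RNA). All 19 members hold TCGA, at position 9 of the joined sequence, the first base they all share. TCGA reads the same on both strands and is also held by 14.8% of the other sequences and by members of 10.8% of the other families, so TCGA identifies nothing by itself. Longer parts of the conserved motif were not searched for. No sequence of the rat spacer was used here, and whether the family derives from it was not tested.

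The lead member novel_12673_x157 had 4254 tags in HPC0h, 315 in tGCI26h, 33 in Sham and 353 in IgG. Divided by the tags of all listed sequences, this was 5121 tags per 1000000 (CPM) in HPC0h, 1416 in tGCI26h, 207 in Sham and 528 in IgG. HPC0h was thus highest and Sham lowest, below the antibody control. In bulk tissue a change in the number of cells that hold an RNA and a change in its amount per cell cannot be told apart, and small RNA tables hold no marker genes by which the CA1 label could be checked. The intervals of all pairwise ratios of the lead excluded 1. The lead stood at rank 25 of all sequences in HPC0h, at rank 96 in tGCI26h, at rank 474 in Sham and at rank 228 in IgG.

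The ratio of HPC0h to tGCI26h was 3.62 for the lead (95% interval 3.23 to 4.07), and that of tGCI26h to Sham was 6.83 (4.76 to 10.1). Over IgG it was 2.68-fold higher in tGCI26h (2.30 to 3.13), while in Sham its ratio to IgG was 0.393 (0.266 to 0.562). The same order of libraries stood in the authors' normalized table, where the lead had 4737 in HPC0h, 1258 in tGCI26h, 173 in Sham and 480 in IgG. That table comes from the same libraries and is not independent evidence.

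The counts of overlapping members were nested. In each pair of listed sequences where one lies inside the other, the inner sequence never had more tags than the outer one, in 151 of 151 such comparisons within the family and in 26420 of 26420 in the whole raw table. No inner sequence was listed in a library where the sequence around it was blank. The difference left when the counts without the first base and without the last base are subtracted from a sequence's count, and the count without both is added back, was negative in 0 of 1087 cases. The sources used here state no counting rule. If a tag was counted for each listed sequence that holds it, the members are not separate measurements, and summing them counts the same tags repeatedly.

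Intervals of the sum are then too narrow even for counting error. The family is therefore given both by its sum and, on that reading, with each tag counted a single time, from the 4 members that lie inside no other and their listed overlaps. The sum was 6896 tags in HPC0h, 416 in tGCI26h, 45 in Sham and 615 in IgG. Counted a single time, the family held 4527 tags in HPC0h, 333 in tGCI26h, 33 in Sham and 370 in IgG. One overlap is not listed, and at its largest possible size these become 4468 in HPC0h, 327 in tGCI26h and 369 in IgG. Without that reduction, the tags counted a single time were 5450 CPM in HPC0h, 1497 in tGCI26h, 207 in Sham and 553 in IgG. The sum was between 1.25 and 1.66 times the tags counted a single time, depending on the library. The library totals hold nested sequences too: sequences that lie inside no other held 65.1% of listed tags in HPC0h, 72.3% in tGCI26h, 69.8% in Sham and 66.3% in IgG.

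With tags counted a single time, the family's ratio of HPC0h to IgG was 9.85 (8.86 to 11.0) and that of HPC0h to tGCI26h was 3.64 (3.26 to 4.08). The ratio of HPC0h to Sham was 26.3 (18.7 to 38.2) and that of tGCI26h to Sham was 7.22 (5.04 to 10.7). Over IgG, tGCI26h was 2.71-fold higher (2.33 to 3.15), and the ratio of Sham to IgG was 0.375 (0.254 to 0.536). Sham rests on 33 tags, which sets the width of its intervals. Taken over the totals of sequences inside no other, HPC0h over tGCI26h was 4.04 (3.62 to 4.53). The direction of all 6 ratios was the same for the lead alone, for the sum and with tags counted a single time. These are not separate measures, since the lead makes up most of each. Of the tags counted a single time, it held 4254 of 4527 in HPC0h and 315 of 333 in tGCI26h. In Sham it held 33 of 33 and in IgG 353 of 370. Comparisons that share a library are not independent of each other. Without the lead the values of the sum moved by over 1.5 times in both directions: its ratio of tGCI26h to IgG was 1.16, against 2.03 with the lead, and its ratio of HPC0h to tGCI26h was 7.01, against 4.44. No interval was computed for these values without the lead, so whether 1.16 differs from 1 was not tested.

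By the sum, the family ranked 14 among the 307 families in HPC0h, 47 in tGCI26h, 96 in Sham and 59 in IgG. A family or a sequence was called higher where it had at least 10 tags in either library, a ratio of at least 2 and an interval above 1. By this rule 13.8% of measured family sums were higher in HPC0h than in IgG, 11.1% than in tGCI26h and 15.0% than in Sham, and the family of novel_12673_x157 was among them each time. Among the 49 families with at least 1000 CPM in HPC0h, it had the highest ratio of HPC0h to tGCI26h, 4.44 for the sum (4.02 to 4.91). The next were the families of novel_8342_x230 at 3.10 (2.47 to 3.93), novel_4400_x424 at 2.16 (2.08 to 2.24) and novel_88_x12235 at 1.68 (1.67 to 1.69). The rank holds for sums of nested counts. With tags counted a single time the family stood at 3.64, inside the interval of novel_8342_x230, and the other families were not counted in that way. The family was chosen for its height in HPC0h, so the rank is a description.

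The other ratios of these 4 families are likewise a description, since the choice of the family used its counts in all libraries and the sums are nested. In tGCI26h against Sham the sum of the lead family was 6.61-fold higher (4.86 to 9.21), against a ratio of 0.594 (0.439 to 0.803) for novel_8342_x230, 1.14 (1.08 to 1.21) for novel_4400_x424 and 0.9503 (0.940 to 0.961) for novel_88_x12235. In Sham against IgG its ratio of 0.307 (0.222 to 0.416) was also the lowest of these 4 families, the others lying between 0.802 and 0.984.

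The second most abundant member, novel_17802_x116, starts 1 base earlier than the lead and ends 1 base earlier. It had 760 tags in HPC0h, 24 in tGCI26h, 4 in Sham and 77 in IgG. Its ratio of HPC0h to tGCI26h was 8.48 (5.66 to 13.3), but its ratio of tGCI26h to IgG was 0.937 (0.566 to 1.498), an interval that holds 1. The lead was above IgG in tGCI26h, whereas this end variant could not be told apart from IgG there.

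The next member, novel_5556_x336, is the lead without its last G. It had 578 tags in HPC0h, 22 in tGCI26h, 4 in Sham and 65 in IgG, and its ratio of tGCI26h to IgG was 1.02 (0.598 to 1.67). The member without the first base of the lead and without its last, novel_7226_x263, had 298 tags in HPC0h, 15 in tGCI26h, 4 in Sham and 30 in IgG, and its ratio of tGCI26h to IgG was 1.503 (0.752 to 2.88). For each of these members that end at position 43 the interval of tGCI26h to IgG holds 1, while HPC0h was between 7.16-fold and 8.00-fold above IgG. Each of the 3 had 4 tags in Sham.

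The longest member, novel_4335_x431 of 38 nt, begins at position 5 and had 219 tags in HPC0h, 11 in tGCI26h and 25 in IgG, and was not listed in Sham. The only member that begins at position 1, novel_13081_x152, had 71 tags in HPC0h, 10 in tGCI26h and 5 in IgG, and was likewise not listed in Sham. It reaches no further than position 35 and had the lowest ratio of HPC0h to tGCI26h among members listed in both, 1.902 (0.976 to 4.14), with an interval that holds 1. The highest was that of novel_6227_x301, from position 7 to 42, at 10.7 (4.49 to 33.2), resting on 199 tags in HPC0h against 5 in tGCI26h and 25 in IgG.

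Among the members that share the start of the lead, counts climbed with each added base at the 3′ end. The direction follows from the nesting of counts and is not particular to this family. Among other pairs that differ by 1 base at the 3′ end, with at least 10 tags in either, the longer was higher in 91.9% in HPC0h. Counts were equal in the remaining 8.11%. HPC0h had 5 tags in novel_2910_x626, 12 in novel_1449_x1180, 59 in novel_10685_x182, 183 in novel_1534_x1125, 578 in novel_5556_x336 and 4254 in novel_12673_x157. The last base alone thus separated 578 from 4254 tags. The members that begin at position 9 did not climb at each base, since those that end at 39 and at 40 both had 5 tags in HPC0h. The same 3 lower counts of 5, 12 and 59 stood in HPC0h for the members that begin 1 base earlier (novel_21651_x100, novel_15420_x131 and novel_7128_x266), so that the added G brought no further tag until position 42. In IgG the 3 members that start at position 5, 7 or 8 and end at 42 each had 25 tags.

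On the same reading, differences between nested counts place the tags, with a blank taken as 0. Tags that need position 44, which lie in the lead but not in novel_5556_x336, numbered 3676 in HPC0h, 293 in tGCI26h, 29 in Sham and 288 in IgG. They were 81.2% of the family's tags counted a single time in HPC0h (80.0 to 82.3), 88.0% in tGCI26h (84.0 to 91.3), 87.9% in Sham (71.8 to 96.6) and 77.8% in IgG (73.3 to 82.0). In each library most tags on this reading ended at the last position of the joined sequence. Of those that ended at 43 in HPC0h, 166 began at position 7, 182 at position 8 and 213 at position 9 or later. The corresponding numbers were 2, 5 and 12 in tGCI26h and 12, 20 and 20 in IgG. Starts at position 7 and at position 8 thus both occurred, while a start at position 9 or later was not placed further. For tags that end at 44 the start is not resolved, because no member other than the lead ends there.

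The tags that end at 44 and the shorter ones differed in how they compared between libraries. Against tGCI26h, HPC0h was 3.36-fold higher for tags that need position 44 (2.98 to 3.80) and 5.70-fold higher for the shorter ones (4.15 to 8.04), and the second ratio divided by the first was 1.70 (1.20 to 2.44). Against IgG, tGCI26h was 3.06-fold higher for tags that need position 44 (2.59 to 3.61) and 1.47-fold for the shorter ones (0.979 to 2.17), with 0.480 for the second over the first (0.309 to 0.736). In HPC0h against IgG the tags that need position 44 were 10.3-fold higher (9.11 to 11.6) and the shorter ones 8.36-fold (6.66 to 10.6), and the interval of the second over the first, 0.626 to 1.06, holds 1. Sham could not be told apart from any other library in this respect, since each interval of the second over the first holds 1. It was 0.990 in tGCI26h against Sham (0.323 to 4.08) and 1.68 in HPC0h against Sham (0.587 to 6.59). In Sham against IgG it was 0.485 (0.120 to 1.44). Tags not needing position 44 were thus, as a whole, a smaller share of the family in tGCI26h than in HPC0h or IgG. By its share of the nested sum, the member that ends earliest, novel_13081_x152, went the other way in value, but the intervals of its shares overlap. That member had only 10 tags in tGCI26h and 5 in IgG. It held 1.03% of the summed tags of HPC0h (0.805 to 1.30), 2.40% of those of tGCI26h (1.16 to 4.38) and 0.813% of those of IgG (0.264 to 1.89), and its ratio of tGCI26h to IgG was 6.01 (1.87 to 22.4). The shorter tags numbered 851 in HPC0h, 40 in tGCI26h, 4 in Sham and 82 in IgG, and the split was chosen after these counts were seen.

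All 19 members were listed in HPC0h, 10 in tGCI26h, 4 in Sham and 9 in IgG, and 9 members were listed in HPC0h alone. Of all 3129 sequences, 2849 were listed in HPC0h, 2102 in tGCI26h, 1749 in Sham and 2646 in IgG. How many of all sequences were listed in HPC0h alone was not counted. The family was chosen for its counts in HPC0h, so the listings of its members are a description. HPC0h also had the most listed tags, 830634, against 222511 in tGCI26h, 159215 in Sham and 668857 in IgG, and the lowest count listed in each library is 2. The 4 members with 5 tags in HPC0h would have 1.34 tags in tGCI26h, 0.958 in Sham and 4.03 in IgG at the same level. A blank is thus within reach of depth alone in tGCI26h and in Sham. With 12 tags in HPC0h, novel_15420_x131 and novel_1449_x1180 would each have 3.21 in tGCI26h and 2.30 in Sham, near the lowest count listed, and 9.66 in IgG. The 2 members with 59 tags in HPC0h that were listed in no other library, novel_10685_x182 and novel_7128_x266, would have 15.8 tags in tGCI26h, 11.3 in Sham and 47.5 in IgG. No fold is given against a library in which a sequence was not listed.

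By single members, 15 of the 15 measured in HPC0h against IgG were higher, where 17.8% of all 2159 measured sequences were. Against tGCI26h 12 of 15 were higher in HPC0h, beside 21.0% of 2036, and against Sham 13 of 15, beside 25.4% of 2020. In tGCI26h against Sham 5 of 6 were higher, beside 27.2% of 1366. The exception was novel_7226_x263, with 15 tags in tGCI26h and 4 in Sham. Over IgG 2 of 9 were higher in tGCI26h, the lead and novel_13081_x152, beside 16.6% of 1961, and 0 of 8 in Sham, beside 12.5% of 1919. Lower in Sham than in IgG were 6 of 8, beside 28.6%. In these calls a blank was taken as 0. Only 4 of the 8 were listed in both Sham and IgG. The lower calls of novel_4335_x431, novel_6227_x301 and novel_1534_x1125 rest on a blank in Sham. In tGCI26h against Sham 4 of the 6 were listed in both, and 3 of those were higher. The members hold each other's tags and were chosen for their counts in HPC0h, so these counts describe a single nested signal. Several passed the minimum only through HPC0h: of the measured members, 9 were listed in both HPC0h and IgG, 10 in both HPC0h and tGCI26h, and 4 in both HPC0h and Sham. Nothing is read from these shares. The median log2 ratio of members listed in both libraries was 2.62 in HPC0h against tGCI26h, where that of all sequences measured and listed in both was -0.03. That gap follows from the choice of a family high in HPC0h and from the nesting, so nothing is read from it either.

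The features typical of piRNAs can be read from the listed sequences but not from most tags, since on the nested reading a tag counted for the lead may begin at position 8 or later, and position 9 is T. As listed, the lead begins with A and has G at position 10. Members that begin with T held 10.1% of the family's summed tags in HPC0h (9.43 to 10.9), 8.41% in tGCI26h (5.93 to 11.5), 8.89% in Sham (2.48 to 21.2) and 10.6% in IgG (8.25 to 13.3). All other sequences that begin with T held 15.96% of the other tags in HPC0h, 27.2% in tGCI26h, 29.2% in Sham and 23.9% in IgG, a higher share than in the family in each library, as listed. No member has A at position 10, while the other sequences with that base held 48.0% of the other tags in HPC0h, 35.3% in tGCI26h, 35.8% in Sham and 46.8% in IgG. These shares of other tags depend strongly on the family of novel_88_x12235. Its sum was 529349 CPM in HPC0h, 315288 in tGCI26h, 331778 in Sham and 413716 in IgG. The shares without that family were not computed, so they do not describe the other sequences in general. By listed length, members of 37 nt held 73.6% of summed tags in HPC0h, 82.9% in tGCI26h, 82.2% in Sham and 69.9% in IgG. The joined sequence has 68.2% G and C.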

How the data were processed

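RNA immunoprecipitation libraries of rat CA1 (HPC0h, tGCI26h, Sham and IgG, 1 each) were size-selected near piRNA length and sequenced on an Illumina instrument, per the labels' protocols. Novoalign 3.02.12 and cutadapt 1.9.3 appear, without their roles, in the submitters' processing notes. The sources used here give no genome build, piRNA database or counting rule.

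Tag counts of each listed sequence stand in the raw table deposited by the authors, per the file headers. The deposited normalized table was treated as a score, since its values are whole numbers on an unstated scale, and it served only for an alternative set of ratios and for values named as normalized. In the copies used here 40 raw lines and 46 normalized lines are empty and were not analysed. The columns P0, R26 and S were matched to HPC0h, tGCI26h and Sham by part of their titles, so those 3 names rest on that match.

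Counts were divided by the total of listed tags (159215 to 830634), since the totals of sequenced reads were not used here. A blank was taken as 0. Ratios carry exact conditional 95% intervals and shares exact Clopper-Pearson intervals (scipy 1.17.1). A ratio of 2 ratios carries the interval of the conditional odds ratio. Intervals cover the counting error of tags only. They treat each tag as a separate draw, but PCR copies are not separate molecules, so intervals can be too narrow even for counting error. The ratio and call steps were tested on simulated counts.

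Named sequences were the lead, the 5 members with most tags, those leading in each library, the highest and lowest HPC0h to tGCI26h ratio, the longest and the shortest, and 3 comparison families. Others are named to show the ladder. The shortest member is novel_1786_x988, of 31 nt, with 5 tags in HPC0h and listed nowhere else. Members and lists were chosen with earlier results of these data known. Alternatives covered the scaling (TMM factors from edgeR 4.0.16, median-of-ratios factors, totals without the largest family, the authors' normalized values), the count minimum, the ratio, the stretch that joins families, and which members were summed.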

Additional observations from a re-analysis of the deposited data

Results flagged for a closer look

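Some values stand in the normalized table where the raw table has a blank, and so lay outside the comparisons. The catalogued rno_piR_000699 had a normalized value of 2 in HPC0h and 2 in tGCI26h and was listed in neither Sham nor IgG. Of the members, novel_7128_x266 and novel_10685_x182 each had a normalized value of 6 in tGCI26h, and novel_1647_x1058 had 3, with none of them listed in IgG in either table. With no more than 6 on an unstated scale, these values say only that a blank in the raw counts need not mean that no tag was seen.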

How the results depend on the processing

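In value, the ratios of the family sum stayed on the same side of 1 under every alternative run. Without the lead, however, tGCI26h over IgG came close to 1, at 1.16, and no interval was computed for it. Values that moved beyond their interval, or counts that moved by over 1.5 times, are given here. For HPC0h over IgG (9.03), the ratio was 9.96 with TMM factors, 9.93 with median-of-ratios factors, 11.2 with totals that leave out the family of novel_88_x12235 and 8.12 without the lead. For tGCI26h over IgG (2.03), it was 1.74 without the novel_88_x12235 family in the totals and 1.16 without the lead. For HPC0h over tGCI26h (4.44), these values were 6.46 and 7.01, and 5.25 with TMM factors. For HPC0h over Sham (29.4), they were 41.7 and 42.2, and Sham over IgG (0.307) was 0.192 without the lead.

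Alternatives chosen after seeing the data were the lead alone, 1 member per 3′ end, blanks set to 1 tag, and tags counted a single time over either total. For tGCI26h over IgG the lead alone gave 2.68, 1 member per 3′ end 2.39, tags counted a single time 2.71, and the same over totals of sequences inside no other 2.48. For HPC0h over tGCI26h the first 3 gave 3.62, 3.94 and 3.64. For HPC0h over IgG the last 2 gave 9.85 and 10.03. The nesting of counts sets the difference between the sum and the single count, and the cause of the other moves was not tested.

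Of the members called higher in tGCI26h than in IgG, 1 was left with at least 50 tags and 1 with a ratio of at least 4, against 2. Of those called higher in tGCI26h than in Sham, 1 was left with at least 50 tags, against 5. No paired analysis was possible because each group had 1 library. The depth limits Sham most, with 33 tags of the lead, and there a difference in end variants was not detectable. Without replicates, the spread between animals is unknown and could exceed any interval given.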
